A study of Mus musculus with 84 samples.

Results

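The 9 long noncoding RNAs described here are Malat1, Neat1, Meg3, Miat, Snhg11, Rian, Mirg, Snhg14 and Kcnq1ot1, RNAs known from other work to stay in the nucleus. They were taken by symbol from the gene table, which holds 55401 gene IDs, and all 9 were among the 17941 genes with enough counts to test. RNA had been sequenced from NeuN-positive nuclei sorted from the frontal cortex of 129S6/SvEvTac mice aged 12 weeks. NeuN marks the nuclei of neurons, so the sort enriches them. The 4 groups were mice given vehicle only and mice taken 24 h, 48 h or 7 days after they were injected with DOI (2,5-dimethoxy-4-iodoamphetamine). DOI is a psychedelic that acts on serotonin 2A receptors. The labels give no dose, no sex and no genotype beyond the strain. Each group had RNA from 4 mice, numbered 1 to 4, and the 2 libraries of a mouse were summed. Levels are in CPM, counts relative to the library total, scaled for composition. Chromatin samples of the same series (H3K27ac) were not analysed here.

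Long noncoding RNAs do not code for protein, and many act or are kept in the nucleus, where sorted nuclei retain them. Malat1 gathers at nuclear speckles, bodies rich in splicing factors. Neat1 is the scaffold of paraspeckles, bodies that form on it as it is made. Miat, also called Gomafu, lies in nuclear foci of neurons and binds splicing factors. Snhg11 is the host gene of small nucleolar RNAs. Meg3, Rian and Mirg are read from the maternal chromosome only, in 1 direction, in the imprinted Dlk1-Dio3 domain. Rian hosts small nucleolar RNAs and Mirg hosts microRNAs. Snhg14 and Kcnq1ot1 are read from the paternal chromosome. Snhg14 runs through the Prader-Willi/Angelman domain, hosts clusters of small nucleolar RNAs and in neurons reaches over Ube3a on the other strand. Kcnq1ot1 starts inside Kcnq1, opposite to it, and is known for silencing genes of that domain.

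The 5 RNAs from imprinted domains (Meg3, Rian, Mirg, Snhg14 and Kcnq1ot1) were higher 24 h and 48 h after DOI, by 2.35-fold to 2.89-fold at 24 h and by 2.33-fold to 3.13-fold at 48 h. Malat1, Neat1, Miat and Snhg11 did not pass the test at any time. So 5 of 9 passed at 24 h, all higher, beside 24.2% of all genes tested (13.8% higher and 10.4% lower). Again 5 of 9 passed at 48 h, all higher, beside 30.1% of all genes (16.8% higher and 13.3% lower). At 7 days 0 of 9 passed, beside 0% of all genes. At that time 5 of the 9 had an unadjusted p below 0.05, beside 16.8% of all genes. That count was 0 without 7 days mouse 4 (9.18%), 1 without vehicle mouse 1 (12.4%), 2 without vehicle mouse 2 (12.7%) and 2 without 7 days mouse 2 (8.91%). It was also 0 without the 3 mice whose file headers carry another mouse number (9.45%), 0 in limma with quality weights (12.4%) and 2 with only these 2 groups fitted (13.5%). The median log2 fold change over the 9 was 1.23 (24 h), 1.22 (48 h) and 0.66 (7 days), and over all genes it was 0.03, 0.02 and 0.02. These comparisons share the 4 vehicle mice and are given side by side. With the level of an 18S ribosomal RNA feature as a covariate, an alternative chosen after seeing the data, 0 of 9 passed at 24 h or 48 h, beside 0% of all genes, and the signs of Rian (both times) and Snhg14 (24 h) turned. Every mouse of 24 h and 48 h had more of that feature than every vehicle mouse, so this fit cannot separate DOI from the 18S level. Leaving out 1 mouse at a time left 2 to 5 of the 9 past the threshold at 24 h: 2 without vehicle mouse 1 (beside 13.9% of all genes), 3 without vehicle mouse 2 (14.1%) and 3 without 24 h mouse 1 (17.4%). At 48 h it left 5 of 9, beside 19% to 26.4% of all genes. At 7 days it left 0 to 5, with 5 without 7 days mouse 1, beside 7.26% of all genes. Calls come from edgeR (quasi-likelihood F test), with p-values adjusted by Benjamini and Hochberg's method over all genes and a threshold of 0.05.

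**Figure D1:**
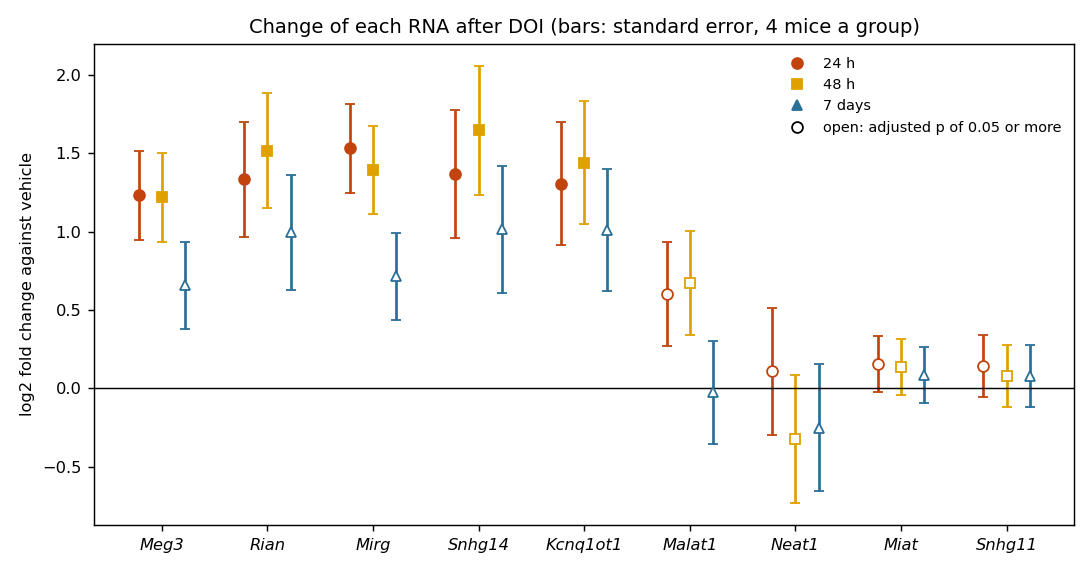
Log2 fold change against vehicle (y axis) of each RNA (x axis) at 24 h, 48 h and 7 days, with standard errors. Filled symbols had an adjusted p below 0.05; the 5 RNAs from imprinted domains are filled at 24 h and 48 h, and every symbol at 7 days is open.

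The libraries differed between groups in depth and in ribosomal RNA. Totals per mouse were 9151680 to 11517452 counts with vehicle. The ranges after DOI were 6441396 to 8090559 (24 h), 5834248 to 7344355 (48 h) and 6972577 to 12354785 (7 days). A feature known as a copy of 18S ribosomal RNA, CT010467.1, held 72.3 to 110.0 CPM with vehicle, 3258 to 15064 at 24 h and 5107 to 16124 at 48 h. At 7 days it held 87.3, 6171, 63.4 and 4622 CPM in mice 1 to 4. Transcripts of the mitochondrial genome took 0.0128% to 0.0579% of the counts with vehicle and 0.0484% to 0.133% at 48 h. The 8 neuron markers summed to 6439 to 6764 CPM with vehicle and 4574 to 6714 CPM at 24 h, and all 8 had counts in every mouse. At 24 h 1 of the 8 was higher, Rbfox3 (the gene of NeuN, 0.81, adjusted p 0.0103), and 3 were lower: Gad1 (-0.84, 0.0135), Gad2 (-0.63, 0.0352) and Snap25 (-0.58, 0.0395). At 48 h Rbfox3 and Map2 were higher and Snap25 and Gad1 lower. Over all genes 13.8% were higher and 10.4% lower at 24 h, and 16.8% and 13.3% at 48 h. The 6 oligodendrocyte markers summed to 164 to 364 CPM with vehicle and 160.0 to 236 at 24 h, where Mbp was lower (-0.83, adjusted p 0.0367). The 4 oligodendrocyte precursor markers summed to 13.5 to 34.7 and 15.1 to 20.1 CPM, with Cspg4 higher (1.97, adjusted p 0.0367), while Olig1 (-0.80, adjusted p 0.117), Pdgfra (-0.64, 0.247) and Olig2 (0.11, 0.926) did not pass at 24 h. At 48 h Cspg4 was higher (2.25, adjusted p 0.0173), and Olig1 (-1.26, 0.0183) and the oligodendrocyte marker Cnp (-1.02, 0.0457) were lower. No tested astrocyte, microglia or endothelial marker passed at 24 h or 48 h. In those lists 0 of 12 had an unadjusted p below 0.05 at 24 h and 2 (microglia) at 48 h. With libraries scaled without the 9 RNAs, 38.4% of all genes had one at 24 h and 42.8% at 48 h. So few genes do not show that these cell types stayed the same. The part of depth, ribosomal RNA and cell types in the results was not tested. In 3 cases (mouse 1 of 24 h, mouse 2 of 48 h and mouse 2 of 7 days) the file header carries mouse number 6 in place of the label's number, with the group unchanged. Without those 3 mice, 3 of the 9 RNAs passed at 24 h (Meg3, Rian and Mirg), beside 19.4% of all genes, the same 5 at 48 h, beside 25.2%, and 0 at 7 days, beside 0%. In sorted nuclei, fewer nuclei of a type and less RNA per nucleus cannot be told apart.

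The label abundant held for 7 of the 9. By mean log2 CPM over the 16 mice, Malat1, Snhg11, Meg3, Miat, Rian, Kcnq1ot1 and Snhg14 lay above at least 95.6% of the genes tested. Mirg lay above 63.7% and Neat1 above 45.2%. The 9 RNAs together took 3.62% to 4.84% of all counts with vehicle, and after DOI 5.27% to 9.51% (24 h), 5.02% to 10.6% (48 h) and 3.05% to 7.01% (7 days). The share held by the 5 from imprinted domains was 0.429% to 0.657%, 1.11% to 1.72%, 1.10% to 1.74% and 0.475% to 1.45% in the same order of groups. Levels of different RNAs are comparable only per length. Per kilobase of exon, vehicle mice had 4254 ± 475 CPM of Malat1 (SD, n = 4), 1201 ± 96.2 of Snhg11, 289 ± 41.0 of Meg3, 73.1 ± 6.97 of Miat and 9.79 ± 2.55 of Rian. The values were 4.30 ± 1.98 for Snhg14, 2.80 ± 0.816 for Kcnq1ot1, 2.43 ± 0.595 for Mirg and 0.641 ± 0.274 for Neat1. The first 5 in that order were apart by more than their spread, and the ranges of Snhg14, Kcnq1ot1 and Mirg overlapped. Kcnq1ot1 is annotated as a single exon of 93092 bases and Neat1 as one of 20771 bases, so their values per kilobase average over long stretches.

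**Figure D2:**
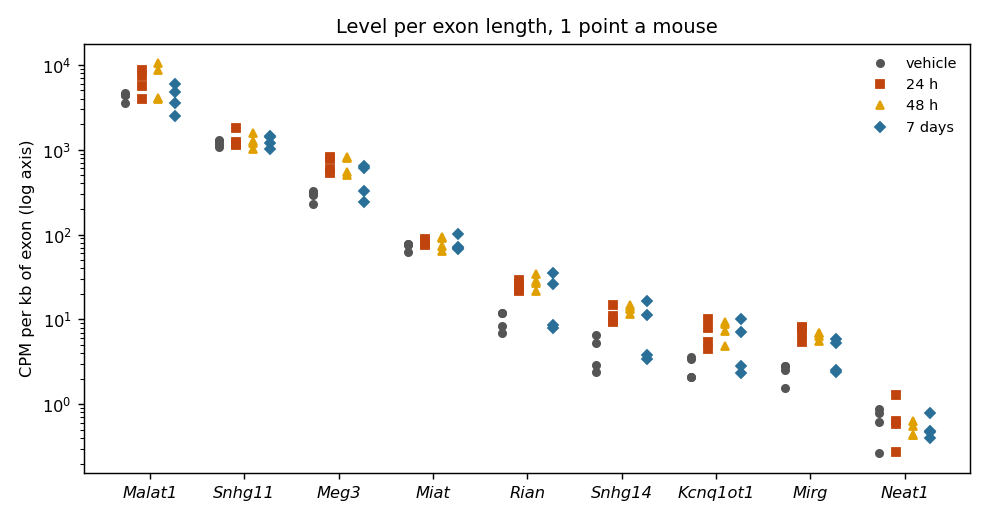
CPM per kilobase of exon (y axis, log scale) of each RNA (x axis, ordered by the vehicle mean), 1 point a mouse with a symbol for each group. Malat1, Snhg11 and Meg3 lie at the top and Neat1 at the bottom in every group.

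The Dlk1-Dio3 domain of chromosome 12 holds 3 of the RNAs that rose, all on the plus strand (GRCm38 as in the files): Meg3 (ENSMUSG00000021268, chr12:109541001-109571726, plus strand), Rian (ENSMUSG00000097451, chr12:109603808-109661716, plus strand) and Mirg (ENSMUSG00000097391, chr12:109729764-109749460, plus strand). Their promoter windows are printed because the 3 RNAs rose together while only the first window holds a motif that was searched. The windows run from 250 bases before to 50 bases after the RefSeq start (GRCm38.p6, plus strand), 5′ to 3′, with matched letters in capitals.

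Meg3 promoter, chr12:109540746-109541045: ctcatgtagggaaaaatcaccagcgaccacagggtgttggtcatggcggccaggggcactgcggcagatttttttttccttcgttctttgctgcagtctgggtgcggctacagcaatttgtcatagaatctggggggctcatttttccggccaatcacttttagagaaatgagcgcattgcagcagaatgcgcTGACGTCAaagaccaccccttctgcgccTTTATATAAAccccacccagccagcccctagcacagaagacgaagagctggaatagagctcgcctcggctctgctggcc

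Rian promoter, chr12:109603695-109603994: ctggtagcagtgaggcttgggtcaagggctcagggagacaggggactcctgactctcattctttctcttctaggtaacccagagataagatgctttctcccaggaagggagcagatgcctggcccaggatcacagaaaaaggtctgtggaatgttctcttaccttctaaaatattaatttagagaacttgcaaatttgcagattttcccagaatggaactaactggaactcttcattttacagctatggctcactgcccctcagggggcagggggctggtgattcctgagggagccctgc

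Mirg promoter, chr12:109734731-109735030: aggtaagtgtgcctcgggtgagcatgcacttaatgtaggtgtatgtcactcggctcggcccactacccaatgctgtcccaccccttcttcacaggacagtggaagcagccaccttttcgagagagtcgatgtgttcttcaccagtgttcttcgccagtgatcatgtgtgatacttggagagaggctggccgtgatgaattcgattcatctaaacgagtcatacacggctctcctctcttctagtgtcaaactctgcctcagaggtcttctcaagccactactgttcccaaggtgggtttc

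Each window was searched on both strands for the cAMP response element (TGACGTCA), the AP-1 site (TGANTCA), the TATA box (TATAAA) and the NR4A response element (AAAGGTCA). The Meg3 window holds TGACGTCA from 57 to 50 bases before the start, and a TATA box on each strand, overlapping, between 29 and 20 bases before it. Of the 32851 RefSeq promoter windows, 1.79% hold the cAMP response element, 7.81% the AP-1 site, 13.6% the TATA box and 1.51% the NR4A response element. RefSeq had windows for 8 of the 9 RNAs, 9 windows in all, and in the other 8 none of these letters was found. Meg3, with a second window further in, has 13 CpG dinucleotides in the window shown, Rian 0 and Mirg 10, against a median of 7 over all windows. The Mirg window lies inside the Ensembl gene rather than at its first exon.

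Meg3, the RNA named maternally expressed gene, was at 4178, 5302, 5859.6 and 5603 CPM in vehicle mice 1 to 4 and at 14716, 10730.2, 9579 and 14158 CPM at 24 h. It was at 9997, 14596, 14962 and 9216 CPM at 48 h and at 4399, 11084, 5889 and 11623 CPM at 7 days. All 8 mice of 24 h and 48 h were above all vehicle mice, while 7 days mice 1 and 3 lay within or at the edge of the vehicle range and mice 2 and 4 lay in the range of 24 h. The non-overlap at 24 h held for 5 of the 9 RNAs and for 18.5% of all genes in the same direction; at 48 h it held for the same 5 and for 19.2%. At 7 days it held for 0 of the 9 and for 5.85% of all genes. The log2 fold change of Meg3 was 1.23 at 24 h with SE 0.28 and an adjusted p of 0.00657, then 1.22, 0.28 and 0.00555 for 48 h, and 0.66, 0.28 and 0.246 for the 7 days group. Among all genes it ranked from 2 to 5 by CPM in every mouse.

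Rian, the host of small nucleolar RNAs between Meg3 and Mirg, was at 219.5, 270.4, 383 and 379 CPM with vehicle and 931, 694, 701 and 828 CPM at 24 h. It was at 869, 916, 1110.4 and 689 CPM at 48 h and 250.0, 838, 278 and 1131 CPM at 7 days. The vehicle range lay below every mouse of 24 h and 48 h, and 7 days mice 1 and 3 again stood inside the vehicle range while mouse 4 was above all other 15 mice. Its log2 fold change was 1.33 at 24 h with SE 0.37 and an adjusted p of 0.0157, then 1.52, 0.37 and 0.00694 for 48 h, and 0.99, 0.36 and 0.184 for the 7 days group. Without vehicle mouse 1 the 24 h value was 1.19 with an adjusted p of 0.0553.

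Mirg, the microRNA host beyond Rian, was at 11.4, 18.4, 20.6 and 20.5 CPM with vehicle and 59.6, 57.0, 39.7 and 49.1 CPM at 24 h. It was at 45.9, 50.4, 49.8 and 40.7 CPM at 48 h and 17.3, 38.1, 18.3 and 43.1 CPM at 7 days. The groups of 24 h and 48 h did not overlap with vehicle, and the mice at 7 days fell into the same pairs. Mirg had the smallest adjusted p of the 9 at both early times: its log2 fold change was 1.53 at 24 h with SE 0.28 and an adjusted p of 0.00291, then 1.39, 0.28 and 0.00277 for 48 h, and 0.71, 0.28 and 0.208 for the 7 days group. Leaving out any 1 mouse kept Meg3 and Mirg past the threshold at 24 h. Its span holds 14 microRNA features, of which 9 had counts, 553 in all beside 4475 for Mirg itself. Summed, they were at 0.469 ± 0.296 CPM (SD, n = 4) with vehicle, against 7.63 ± 1.79 (24 h), 7.62 ± 2.81 (48 h) and 2.96 ± 2.94 (7 days). The vehicle mice ran from 0.227 to 0.884 CPM, near the floor of 3 counts, which was 0.283 to 0.341 CPM in that group. The libraries were made with SMART-seq2, which does not select mature microRNAs.

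The proportions of the 3 RNAs to each other overlapped between groups. The log2 ratio of Rian to Meg3 counts was -4.09 ± 0.21 (SD, n = 4) with vehicle, against -3.95 ± 0.13 (24 h), -3.75 ± 0.19 (48 h) and -3.91 ± 0.46 (7 days). That of Mirg to Meg3 was -8.23 ± 0.19, -7.90 ± 0.25, -8.00 ± 0.24 and -8.14 ± 0.15 in the same order. For both ratios every DOI group overlapped with vehicle. Of the other 6 genes of the domain that were listed, 4 could be tested and 2 passed at 24 h, both higher, beside 13.8% of all genes. Rtl1, a retrotransposon-derived gene between Meg3 and Rian that is known to be read from the paternal chromosome, rose from 9.76 ± 2.67 CPM with vehicle to 160.5 ± 32.9 at 24 h, which is 4.04 on the log2 scale (SE 0.69, adjusted p 0.00219). It was at 160.3 ± 58.0 CPM at 48 h (4.04, adjusted p 0.00170) and at 91.3 ± 93.1 CPM at 7 days (3.22, adjusted p 0.0960). A maternal RNA runs through Rtl1 on the other strand, and the counting had no strand option, so reads of the 2 cannot be told apart. Begain, which codes for a postsynaptic protein, rose by 1.23 at 24 h (SE 0.32, adjusted p 0.0130) and 1.13 at 48 h (adjusted p 0.0155) on the log2 scale. Wars, a tryptophan-tRNA ligase, had -0.49 at 24 h (adjusted p 0.283) and Wdr25 had 0.47 (adjusted p 0.405). Dlk1 and Dio3, the protein-coding genes that give the domain its name, had too few counts to test.

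Snhg14 (ENSMUSG00000100826, chr7:59307924-59975759, minus strand) spans 667836 bases, of which 26093 are exon. It overlaps 213 other annotated features, 17 of them small nucleolar RNAs by name (Snord or Snora), of which 2 had any count (3 counts over all mice). That count leaves out short single-exon features with Gm names, whose type was not checked. Some of them had counts, such as Gm24966 (79 bases), at 1.98 CPM with vehicle and 6.15 at 24 h. Snhg14 was at 62.7, 76.2, 138 and 172 CPM with vehicle and 385, 240.2, 251 and 284 CPM at 24 h. It was at 349, 385, 367 and 304 CPM at 48 h and 88.2, 293, 98.7 and 427 CPM at 7 days. Vehicle mice 3 and 4 were higher than mice 1 and 2, yet below every mouse of 24 h and 48 h. At 7 days mice 1 and 3 were in the vehicle range and mouse 4 was the highest of all 16. The log2 fold change was 1.37 at 24 h with SE 0.41 and an adjusted p of 0.0224, then 1.65, 0.41 and 0.00778 for 48 h, and 1.01, 0.40 and 0.216 for the 7 days group. Its 24 h call was lost without vehicle mouse 1, vehicle mouse 2 or 24 h mouse 1, with an adjusted p of up to 0.0759.

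Of 6 other tested genes from a list for the domain, 1 was higher and 1 lower at 24 h, beside 13.8% and 10.4% of all genes. Ube3a, a ubiquitin ligase that is silenced on the paternal chromosome in neurons, rose from 274 ± 78.7 CPM with vehicle to 598 ± 175 at 24 h (1.12, SE 0.34, adjusted p 0.0249) and 668 ± 209.9 at 48 h (1.28, adjusted p 0.0111). Snrpn, which codes for a splicing protein and lies next to the annotated start of Snhg14 on the paternal transcript, fell from 447 ± 27.3 CPM to 119 ± 58.6 at 24 h (-1.90, SE 0.52, adjusted p 0.0156) and 107 ± 47.1 at 48 h (-2.06, adjusted p 0.00882). So Snhg14 and Snrpn had log2 fold changes of opposite sign at both times. Ndn, Magel2, Mkrn3 and Atp10a did not pass, with values at 24 h of -0.09, 0.85, -0.44 and -0.34. Gm38393, which was not on that list, is a gene of 16 annotated exon records (chr7:59974149-60005064, same strand) that overlaps the spans of Snhg14 and Snrpn. It went from 15.5 to 49.3 CPM at 24 h (1.67, adjusted p 0.0131) and 63.1 CPM at 48 h (2.02, adjusted p 0.00426), opposite in sign to Snrpn. How reads of overlapping genes were divided among them was not tested. The log2 ratio of Snhg14 to Ube3a counts was -1.36 ± 0.27 (SD, n = 4) with vehicle, against -1.03 ± 0.12 (24 h), -0.88 ± 0.33 (48 h) and -1.20 ± 0.29 (7 days), and each DOI group overlapped with vehicle. The annotated ends of the 2 genes overlap on opposite strands, and 7.73% of the exon bases of Snhg14 lie in exons of other genes. Of the same-strand features wholly inside the span, 5 could be tested, each a single exon (A230103L15Rik, Gm24966, Gm25870, Gm44831 and Gm22373): 4 were higher at 24 h and 5 at 48 h. Gm24966, Gm25870 and Gm22373 are short, at 79, 79 and 89 bases. On the opposite strand the 1 tested was Gm44829, also a single exon, which went from 35.0 to 82.0 CPM at 24 h (1.23, adjusted p 0.0318). Among all single-exon features inside another gene 31.5% were higher at 24 h and 39.2% at 48 h.

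**Figure D3:**
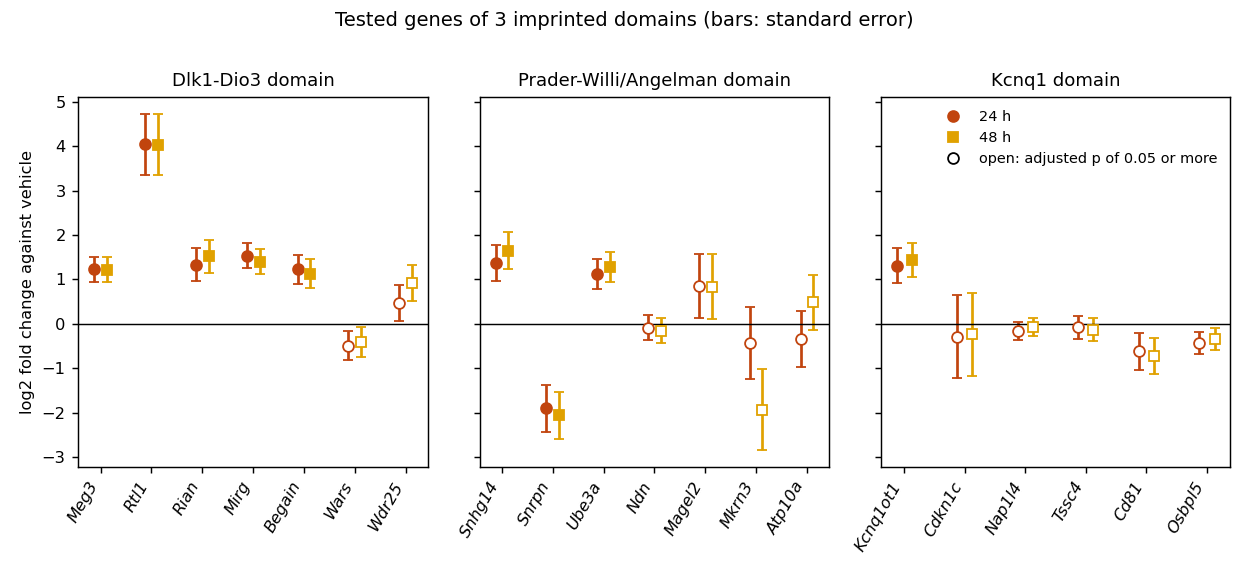
Log2 fold change against vehicle (y axis) with standard errors at 24 h and 48 h for the tested genes of 3 imprinted domains (x axis). Filled symbols had an adjusted p below 0.05; Rtl1 is the highest, Snrpn lies below 0, and in the Kcnq1 domain the filled symbols are those of Kcnq1ot1.

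Kcnq1ot1 (ENSMUSG00000101609, chr7:143203458-143296549, minus strand) was at 195, 195, 318 and 334 CPM with vehicle and 933, 502, 411 and 731 CPM at 24 h. It was at 681, 831, 858 and 457 CPM at 48 h and 215, 668, 266 and 951 CPM at 7 days. The lowest mice of 24 h (mouse 3) and 48 h (mouse 4) were still above the highest vehicle mouse, and 7 days mice 1 and 3 were within the vehicle range. Its log2 fold change was 1.31 at 24 h with SE 0.39 and an adjusted p of 0.0228, then 1.44, 0.39 and 0.0121 for 48 h, and 1.01, 0.39 and 0.202 for the 7 days group. The 24 h call was lost without any 1 of vehicle mouse 1, vehicle mouse 2, 24 h mouse 1 or 24 h mouse 4, with an adjusted p of up to 0.0755. All of its bases lie under Kcnq1 on the other strand. Kcnq1, a potassium channel gene, had 0 to 9 counts per mouse, with 0 in 4 of the 16, so it could not be tested and the ratio of the 2 was not formed. Because Kcnq1ot1 is counted as 1 exon of 93092 bases without strand, reads from introns of Kcnq1 would be counted as Kcnq1ot1. Among the other genes of the domain 0 of 5 tested passed at 24 h, beside 24.2% of all genes, and 0 of 5 at 48 h, beside 30.1%, with 0 at an unadjusted p below 0.05 at either time. So few genes do not show that the neighbours stayed the same. Cdkn1c, a cell cycle inhibitor that Kcnq1ot1 is known to silence, had -0.29 (SE 0.93) at 24 h on the log2 scale at a level of 1.47 ± 1.19 CPM with vehicle. Cd81 had -0.62, Osbpl5 -0.44, Nap1l4 -0.16 and Tssc4 -0.07.

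**Figure D4:**
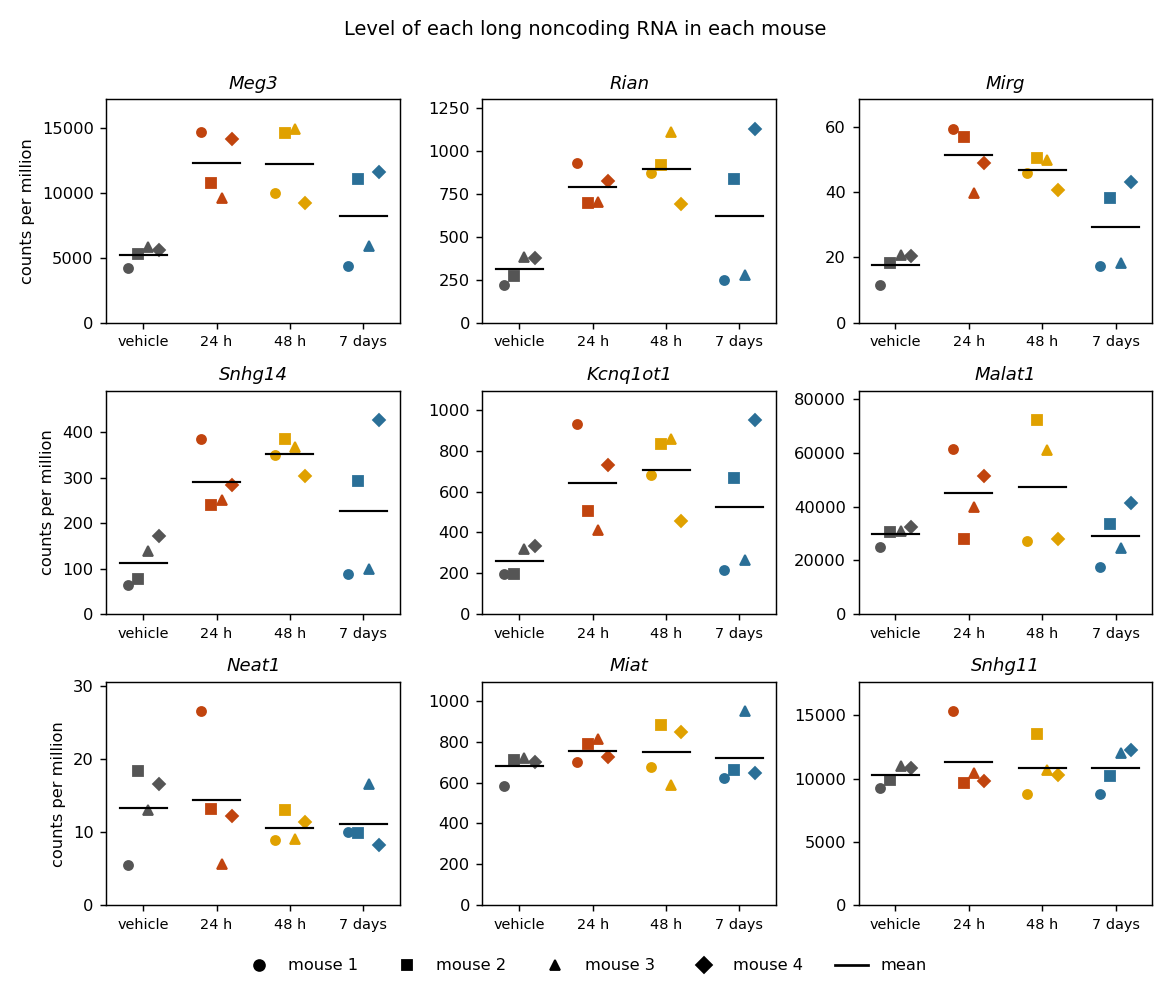
CPM (y axis, from 0) of each RNA in each of the 16 mice by group (x axis), with a symbol for each mouse number and a line at the group mean. In the first 5 panels the 24 h and 48 h mice lie above the vehicle mice, and 7 days mice 2 and 4 lie above mice 1 and 3.

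The 7 days group was not uniform for the 5 imprinted RNAs. With the vehicle mean of each RNA set to 0% and its 24 h mean to 100% on the log2 scale, mouse 1 lay at -21.0% to -0.0668% over the 5 RNAs and mouse 3 at -9.84% to 14.9%. Mouse 2 lay at 73.3% to 109.8% and mouse 4 at 84.8% to 149.6%. So mice 1 and 3 lay nearer to the vehicle mean and mice 2 and 4 nearer to the 24 h mean or above it. Mirg in mouse 2 and Meg3 in mouse 3 lay above every vehicle mouse and below every mouse of 24 h and 48 h. The pairs were not compared with a test, since the split was read from the outcome. Without 7 days mouse 1, Meg3, Rian, Mirg, Snhg14 and Kcnq1ot1 all passed at 7 days (adjusted p 0.0263 to 0.0489), beside 7.26% of all genes, and without mouse 3 Rian alone did, beside 6.28%. Without mouse 2 or without mouse 4 none of the 9 passed, beside 0% of all genes. Without mouse 4 the log2 fold changes at 7 days were 0.45 for Meg3, 0.55 for Rian, 0.47 for Mirg, 0.52 for Snhg14 and 0.56 for Kcnq1ot1, against 0.66, 0.99, 0.71, 1.01 and 1.01 with all 4 mice, and without mouse 2 they were 0.48, 0.82, 0.56, 0.87 and 0.87 in the same order. With no filter on low counts Rian, Snhg14 and Kcnq1ot1 passed, beside 2.62%. The 18S feature split the same mice: 7 days mice 1 and 3 had vehicle-like levels and mice 2 and 4 had 6171 and 4622 CPM. Averaged over the 5 RNAs, the 10 mice with at least 3258 CPM of the 18S feature (all of 24 h and 48 h, and 7 days mice 2 and 4) lay 1.05 to 1.73 above the vehicle mean on the log2 scale, and the other 6 lay between -0.49 and 0.36. With log2 CPM of the 18S feature as a covariate in the same fit, 0 of the 9 RNAs passed at 24 h or 48 h, beside 0% of all genes. In that fit 0 of the 9 had an unadjusted p below 0.05, beside 4.78% of all genes at 24 h and 3.86% at 48 h. The log2 fold changes at 24 h were then 0.34 for Meg3, 0.55 for Mirg, 0.01 for Kcnq1ot1, -0.14 for Snhg14 and -0.28 for Rian. No mouse of 24 h or 48 h had an 18S level in the vehicle range, so DOI at 24 h and 48 h and the 18S level cannot be told apart.

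**Figure D5:**
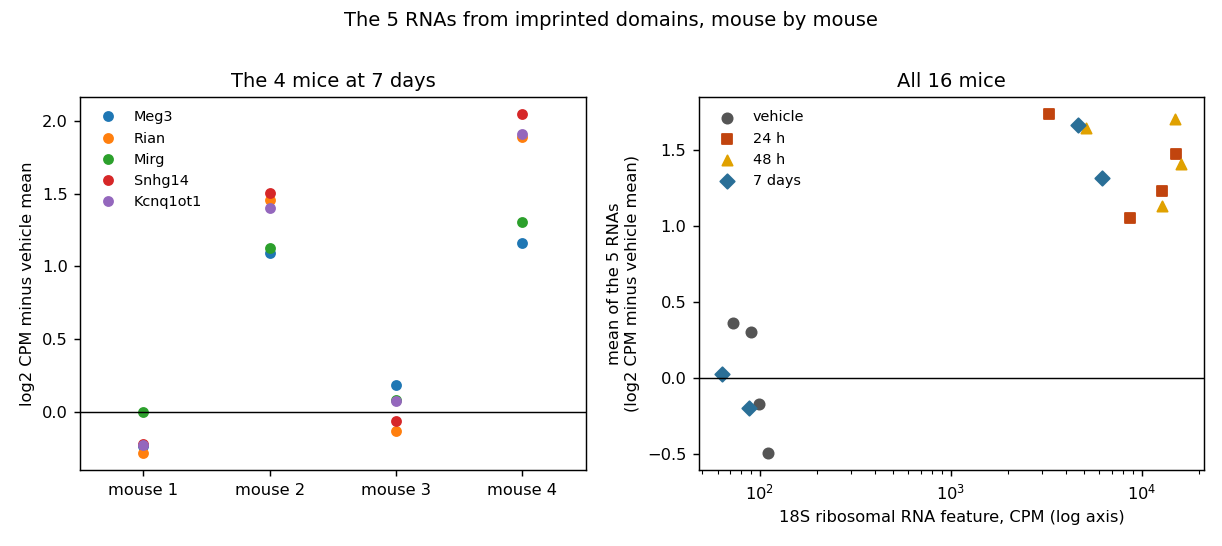
Left, log2 CPM minus the vehicle mean (y axis) of the 5 RNAs in each mouse at 7 days (x axis). Right, the mean of the 5 (y axis) against CPM of the 18S feature (x axis, log scale) in all 16 mice; 10 mice lie between 1.05 and 1.73 and the other 6 between -0.49 and 0.36.

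Malat1 (ENSMUSG00000092341, chr19:5795690-5802672, minus strand), the speckle RNA, was the most counted gene in all 16 mice. It was at 24880.1, 30469, 31064 and 32399.8 CPM with vehicle and 61346, 27875, 39718 and 51552 CPM at 24 h. It was at 27357, 72313, 61179 and 28117 CPM at 48 h and 17499, 33366, 24435 and 41318 CPM at 7 days. Within 24 h and 48 h the mice differed widely: 3 of 4 at 24 h and 2 of 4 at 48 h were above all vehicle mice, and the others lay in the vehicle range. The spread (SD of CPM over the mean) was 11.2% with vehicle, against 32.1% (24 h), 48.6% (48 h) and 35.6% (7 days). The log2 fold change was 0.60 at 24 h with SE 0.33 and an adjusted p of 0.188, then 0.67, 0.33 and 0.130 for 48 h, and -0.03, 0.33 and 0.976 for the 7 days group, none past the threshold. The mice with the most Malat1 at 24 h (mouse 1) and 48 h (mouse 2) had the lowest neuron marker sums of their groups, 4574 and 4249 CPM. The other groups did not show this. With vehicle, mouse 4 had the most Malat1 and the highest sum, 6764 CPM. At 7 days mouse 4 had the most Malat1 and a sum of 5252 CPM, while the lowest sum was that of mouse 3, 4951 CPM. The part of the markers in the level was not tested. Mouse 1 of 24 h and mouse 2 of 48 h are among the 3 whose headers carry another number. Without those 3 the log2 fold change of Malat1 was 0.42 (adjusted p 0.380) at 24 h and 0.39 (adjusted p 0.384) at 48 h. Without mouse 1 of 24 h alone it was 0.42, and without mouse 2 of 48 h alone 0.39. With the 18S level as a covariate it was 0.20 at 24 h and 0.25 at 48 h. Over 16 settings, apart from leaving out 1 mouse and the 18S covariate, it ran from 0.29 to 0.70 at 24 h (adjusted p 0.0447 to 0.385) and from 0.39 to 0.86 at 48 h (0.0488 to 0.384), and 1 of the 16 passed at each time, the limma fit of the 32 single libraries with the mouse as a random effect.

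Among 21 listed proteins of nuclear speckles and partners of these RNAs, all tested, 2 were higher and 9 lower at 24 h, with a median log2 fold change of -0.39; at 48 h 3 were higher and 9 lower, and at 7 days 0 passed. Over all genes 13.8% were higher and 10.4% lower at 24 h, and 16.8% and 13.3% at 48 h. The fallers included Srrm2, a scaffold protein of speckles (-2.04, SE 0.44, adjusted p 0.00477, from 952 ± 99.7 to 232 ± 67.0 CPM), and Celf3, an RNA-binding protein known as a partner of Miat (-1.77, adjusted p 0.0149). The risers were Sf1, splicing factor 1 and another Miat partner (1.56, SE 0.26, adjusted p 0.00181), and Prpf8, a core protein of the spliceosome (0.83, adjusted p 0.0140).

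Neat1 (ENSMUSG00000092274, chr19:5824708-5845478, minus strand) was low in these nuclei, with 45 to 174 counts per mouse. It was at 5.48, 18.3, 13 and 16.5 CPM with vehicle and 26.5, 13.1, 5.71 and 12.2 CPM at 24 h. It was at 8.98, 13.1, 9.04 and 11.4 CPM at 48 h and 9.99, 9.86, 16.6 and 8.26 CPM at 7 days. All groups overlapped, and the highest value was that of 24 h mouse 1. The log2 fold change was 0.11 at 24 h with SE 0.40 and an adjusted p of 0.866, then -0.33, 0.41 and 0.569 for 48 h, and -0.25, 0.40 and 0.786 for the 7 days group. Without 24 h mouse 1 the 24 h value was -0.37, so its sign rests on 24 h mouse 1 (and likewise on vehicle mouse 1, without which it was -0.16). Neat1 and Malat1 are neighbours on chromosome 19 and are read in the same direction. Their log2 count ratio (Neat1 to Malat1) was -11.25 ± 0.64 (SD, n = 4) with vehicle, against -11.76 ± 0.80 (24 h), -12.00 ± 0.69 (48 h) and -11.33 ± 0.82 (7 days), and the DOI groups overlapped with vehicle.

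Of 20 listed paraspeckle proteins, which assemble on Neat1, 4 were higher and 3 lower at 24 h (median log2 fold change -0.13), 4 higher and 5 lower at 48 h (-0.15), and 0 passed at 7 days, where 6 had an unadjusted p below 0.05. These counts stand beside 13.8% higher and 10.4% lower over all genes at 24 h, 16.8% and 13.3% at 48 h, and 16.8% with an unadjusted p below 0.05 at 7 days. Dazap1 rose from 2.91 ± 0.400 to 24.7 ± 7.53 CPM (3.09, SE 0.45, adjusted p 0.00153) and Taf15 by 1.61 (adjusted p 0.00914). Ewsr1 had -1.01 (adjusted p 0.00501) and Nono, one of the core proteins of the paraspeckle, had -0.95 (SE 0.28, adjusted p 0.0226), both lower.

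Miat (ENSMUSG00000097767, chr5:112213228-112229395, minus strand) was at 583, 713, 719 and 702 CPM with vehicle and 701, 786, 815 and 723 CPM at 24 h. It was at 675, 879.6, 587 and 848 CPM at 48 h and 620.1, 661, 948 and 647 CPM at 7 days. The groups overlapped throughout. The log2 fold change was 0.16 at 24 h with SE 0.18 and an adjusted p of 0.547, then 0.14, 0.18 and 0.582 for 48 h, and 0.08, 0.18 and 0.849 for the 7 days group. Of its exon bases 76.0% lie under Gm26953, a gene on the other strand, and 30.4% are shared with exons of other genes, where reads are left out by default. Gm26953 itself went from 8.52 to 16.8 CPM at 24 h, with a log2 difference of 0.98 (adjusted p 0.0524). Without strand, reads of the 2 cannot be told apart.

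Snhg11 (ENSMUSG00000044349, chr2:158375638-158386151, plus strand), which ranked from 2 to 4 among all genes by CPM in every mouse, was at 9233, 9922, 10963 and 10857 CPM with vehicle and 15307, 9634, 10444 and 9827 CPM at 24 h. It was at 8745, 13509, 10649.7 and 10319 CPM at 48 h and 8776, 10214, 12027 and 12253 CPM at 7 days. The highest values were those of 24 h mouse 1 and 48 h mouse 2, the mice with the most Malat1 in their groups, and the other 14 lay from 8745 to 12253 CPM. Its log2 fold change was 0.14 at 24 h with SE 0.20 and an adjusted p of 0.629, then 0.08, 0.20 and 0.794 for 48 h, and 0.08, 0.20 and 0.870 for the 7 days group.

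None of the 9 passed in the comparisons between DOI times. Of 48 h against 24 h, 0 passed and 0 had an unadjusted p below 0.05, beside 0% and 1.88% of all genes. Of 7 days against 48 h, 0 passed and 2 (Malat1 and Mirg) had an unadjusted p below 0.05, beside 0% and 16.5%. Of 7 days against 24 h, 0 passed and 1 (Mirg) had one, beside 0.00557% and 14.2%. Meg3 differed by -0.01 (SE 0.28) between 48 h and 24 h, and Mirg by -0.82 (SE 0.28) between 7 days and 24 h, on the log2 scale. DESeq2 on the same counts gave 0 of 9 in each of these comparisons and at 7 days against vehicle. Its shares of all genes were larger than with edgeR wherever the 7 days group took part. With DESeq2 that group differed from vehicle in 4.44% of all genes, from the 48 h group in 2.42% and from the 24 h group in 2.03%. Between the early times the DESeq2 share was 0%.

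The 2 libraries of a mouse gave close values. The SD between them on the log2 scale was 0.0173 for Snhg11, 0.0255 for Meg3, 0.0467 for Kcnq1ot1, 0.0889 for Snhg14, 0.123 for Mirg and 0.403 for Neat1. Between mice of a group it was larger for all 9, from 0.217 for Miat to 0.684 for Snhg14. The largest gap between libraries of 1 mouse was 1.65 for Neat1, and for Malat1 it was 0.54 in 7 days mouse 2.

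Across the 16 mice the 5 imprinted RNAs, from 3 chromosomal domains, varied together. As a description of log2 CPM that shares libraries, depth and group differences, Pearson's r was 0.908 to 0.982 over their 10 pairs, and 0.847 to 0.960 for deviations from the group means. Malat1 had r of 0.664 to 0.809 with them and 0.580 to 0.852 for deviations, a range that reaches that of the 5. For the others r was, for levels and then deviations, 0.343 to 0.469 and 0.371 to 0.534 for Snhg11, -0.00590 to 0.186 and -0.309 to -0.154 for Miat, and -0.0468 to 0.116 and -0.00272 to 0.277 for Neat1. Among 8954 genes whose mean log2 CPM reached 4 (8955 for Neat1), the gene most like Meg3 was Nav2 (r = 0.984), that most like Rian was Wnk1 (0.989) and that most like Mirg was Ccser1 (0.972). Snhg14 was most like Rian itself (0.982) and Kcnq1ot1 most like Ube3a (0.980). For the RNAs that did not pass, the closest genes were Psma3 for Malat1 (0.923), Gm5577 for Snhg11 (0.906), Usp20 for Miat (0.819) and Plekhn1 for Neat1 (0.817).

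Other imprinted genes and other long noncoding RNAs moved in both directions. Of 31 further imprinted genes tested, outside the 3 domains, 7 were higher and 1 lower at 24 h (median log2 fold change 0.28), and 9 and 1 at 48 h, where 13.8% of all genes were higher and 10.4% lower at 24 h and 16.8% and 13.3% at 48 h. Zrsr1, which codes for a splicing factor, had 1.57 (SE 0.35, adjusted p 0.00579), Mcts2 had 1.12 (adjusted p 0.0164) and Nap1l5, the 1 that was lower, had -0.80 (adjusted p 0.0324). Of 38 other long noncoding RNAs tested, 8 were higher and 6 lower at 24 h (median 0.28), and 9 and 4 at 48 h. The host genes Snhg8 and Zfas1 had 2.24 (SE 0.43, adjusted p 0.00329) and 1.70 (adjusted p 0.00889), while Dlx6os1, from a locus of interneuron genes, had -1.09 (adjusted p 0.00834) and Tug1 had -0.97 (adjusted p 0.00472). Among all 1120 tested genes that RefSeq calls long noncoding, 12.9% were higher and 3.57% lower at 24 h; among 13392 protein-coding genes the shares were 11.3% and 12.7%. Among 793 genes of the level of Snhg14 or above, 7 of them described here, 12.5% were higher and 25.3% lower. Single-exon features inside the span of another gene, the class of Kcnq1ot1, were mostly uncalled or higher: of 1844 tested, 31.5% were higher and 3.42% lower at 24 h, with a median log2 fold change of 1.12, and 39.2% were higher at 48 h. Reads from introns of the gene around such a feature would be counted in it, and their part in the value of Kcnq1ot1 was not tested.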

How the data were processed

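The authors deposited 1 table of read counts per library, whole-number counts for each Ensembl gene made with featureCounts 2.0.0, per the file headers. The headers show no option for strand, read pairs, multi-mapped reads or overlaps. The aligner of the RNA reads is not given in the sources used here, and mm10 is the build per the submitters' processing notes. The deposited length column holds the exon bases of each gene, which gave CPM per kilobase.

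The 32 libraries were summed by mouse (16 mice, 4 in each group), because the 2 libraries of a mouse are technical replicates. Low genes were filtered with filterByExpr, libraries were scaled with TMM, and edgeR 4.0.16 (R 4.3.3) fitted all 16 mice with a shared spread and the quasi-likelihood test. Alternatives used DESeq2 1.42.0 and limma 3.58.1. On simulated data with 200 of 17941 genes changed 3-fold at 24 h, the fit recovered 147, with 6 false calls. The simulation gave every gene the same spread, raised as many genes as it lowered and held no group difference in ribosomal RNA. It therefore gives no error rate for the real libraries. Log2 CPM had a prior count of 2.

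Symbols were matched for 55141 of 55401 gene IDs. A count of 3 was taken as the floor. Reads carry no molecular identifiers, so depth speaks for counting error only. Library totals were 2763704 to 7436451.

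The 9 RNAs and the gene lists were chosen with earlier results of these data known. All 9 and every tested gene of the 3 domains could be named. From other lists, at most 2 genes in each direction were named, those with the largest change at 24 h past the threshold and a mean log2 CPM of at least 2. The 2 most alike genes were ranked by Pearson's r. The features named inside Snhg14, Gm38393, Gm26953 and the marker genes lie outside that rule and were named after their values were seen. Mouse numbers did not pair the mice: over 24 same-numbered pairs the correlation of deviations averaged -0.04, from -0.28 to 0.24. A planned ratio of Kcnq1ot1 to Kcnq1 was not formed, since Kcnq1 had 0 counts in some mice.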

Additional observations from a re-analysis of the deposited data

Results flagged for a closer look

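Of 52 sets of 4 mice examined (levels and ratios of the 9 RNAs by group), 2 held a mouse that stood apart. By chance about 1 set in 20 would be expected to hold one, or 2.6 here. Both were Miat. Vehicle mouse 1 had 582.8 CPM of Miat while the other vehicle mice had 702 to 719. In the 7 days group, mouse 3 had 948.3 CPM of Miat while the other mice had 620.1 to 661.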

How the results depend on the processing

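At 24 h the number of the 9 RNAs past the threshold was 5, and it was 3 without the 24 h and 48 h mice with the fewest detected genes (beside 18.3% of all genes), 3 without the 3 mice whose headers carry another number (19.4%), and 0 with the 18S covariate (0%); leaving out 1 mouse gave 2 to 5 (13.9% to 21.2%). At 48 h it was 5, or 0 with the 18S covariate (0%), and 5 to 5 leaving out 1 mouse (19% to 26.4%). At 7 days it was 0, or 3 with no filter on low counts (2.62%), and 0 to 5 leaving out 1 mouse (0% to 7.26%). With the 32 libraries fitted singly and correlation within a mouse estimated, it was 6 at 24 h (32.1%) and 6 at 48 h (35.2%), with Malat1 added, and 0 at 7 days (1.97%); 4 were lower at 7 days than at 48 h (Meg3, Rian, Mirg, Snhg14, beside 7.72%) and 2 were lower at 7 days than at 24 h (Meg3, Mirg, beside 6.12%), against 0 in both. The mouse number as a replicate block changed no call, with 5 RNAs at 24 h (20.4%), again 5 at 48 h (26.0%) and 0 at 7 days (0%). The cause of these shifts was not tested. The header-number, 18S and thinned-count alternatives were chosen after seeing the data. The fit with the 18S covariate cannot separate DOI at 24 h and 48 h from the 18S level.

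Signs turned for values that had not passed, apart from Rian and Snhg14 with the 18S covariate. Under that covariate Rian was at -0.28 and Snhg14 at -0.14 at 24 h, Rian at -0.21 and Neat1 at 0.66 at 48 h, and Neat1 at 0.12 at 7 days (log2). Neat1 at 24 h was -0.36 with quality weights, -0.36 without the mice with fewest genes and -0.37 without the header-number mice, and -0.37 to 0.37 leaving out 1 mouse. Snhg11 at 24 h was -0.0326, -0.0353 and -0.0378 in the same settings, and -0.0363 to 0.208 leaving out 1 mouse; at 48 h it was -0.0473 without the header-number mice and -0.0463 to 0.152 leaving out 1 mouse. Malat1 at 7 days was 0.0181 with upper-quartile scaling, 0.0390 with total counts, 0.000602 with the stricter filter, 0.0589 with library 2 alone, 0.0152 with only the 2 groups compared, and -0.24 to 0.16 leaving out 1 mouse. Miat at 7 days ran from -0.0746 to 0.148 leaving out 1 mouse. Upper-quartile and total-count scaling moved the median of all genes to 0.12 and 0.14 at 24 h, from 0.03, and to 0.11 and 0.12 at 48 h, from 0.02. Of 432 other values 411 neither turned sign nor crossed the threshold, as did 194 of 216 when a mouse was left out and 15 of 27 with the 18S covariate. With counts thinned to the lowest total, the same 5 RNAs passed at 24 h, beside 24.5% of all genes, and at 48 h, beside 30.8%. The SD between the 2 libraries of a mouse was 0.40 (log2) for Neat1, the highest of the 9.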
